A study of Homo sapiens with 12 samples.

Results

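The 39 genes described here are type I interferon response genes: 4 sensors of foreign RNA (DDX58, IFIH1, DHX58 and DDX60), 4 transcription factors (STAT2, IRF1, IRF7 and IRF9) and 31 effectors. They were taken from a list of symbols, and each had 1 row in both deposited tables, which held 60612 genes for HCCLM3 and 32507 for LX2. RNA sequencing covered 12 libraries of 2 human cell lines grown in a tumor-on-a-chip, a small culture device. HCCLM3 is labelled as a hepatoma cell line and LX2 as a line of hepatic stellate cells, the collagen-making cells of the liver, and all libraries carry the genotype label WT. HCCLM3 alone, HCCLM3 with LX2, LX2 alone and LX2 with HCCLM3 had 3 libraries each; co-culture below means growth with the other line. No agent, dose or time is given in the labels, and the way the lines were parted before extraction was not given in the sources used here. Nothing says that the replicates were separate cultures, and a p-value here reflects only how much these libraries varied, possibly for technical reasons.

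Type I interferons are secreted proteins that bind the receptor IFNAR1-IFNAR2 and, through the kinases JAK1 and TYK2, activate STAT2, which works with the DNA-binding factor IRF9. The complex they form binds the interferon-stimulated response element (ISRE) in promoters of genes whose products detect viral RNA, block translation or bar viral entry. Cytosolic RNA sensors such as RIG-I (the DDX58 product) and MDA5 (the IFIH1 product) in turn signal through MAVS to IRF3 and IRF7, which switch on interferon genes. In liver, hepatocytes, stellate cells and hepatoma cells all possess this pathway, and it is known for its part in defence against hepatitis viruses.

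The libraries held 61836616 to 77712308 counts. Grown alone, HCCLM3 carried the keratin KRT8 at 555 FPKM (fragments scaled by gene length and library size) but albumin at 0.531 FPKM and no count of GPC3. LX2 alone carried 5 of 12 stellate and fibroblast markers at 1 FPKM or more. These were vimentin (VIM) at 176, COL1A1 at 2.72, PDGFRB at 2.38, ACTA2 at 1.37 and LUM at 1.02 FPKM. LX2 alone had no count of 3 others, COL1A2, SPARC and COL6A3. HCCLM3 alone carried 3 of the 12 at 1 FPKM or more: LUM at 11, COL6A3 at 2.4 and VIM at 2.08 FPKM. The names used for both lines are those of the labels. Several marker sums set co-cultured HCCLM3 apart from HCCLM3 alone. Sums over 12 hepatocyte markers were 3197 to 3563 counts alone and 23374 to 24161 in co-culture, and sums over 7 hepatoma markers 453425 to 543670 and 245471 to 305475. Most hepatocyte counts in co-culture were of FGB, FGA and FGG. In the edgeR test used below, these, ALB and TF rose, while APOA1, APOB, SERPINA1 and AHSG did not pass. Of the hepatoma markers, KRT8, KRT18, KRT19 and SPP1 fell, while AFP and EPCAM did not pass. The summed counts of 9 erythroid markers were 0 to 6 alone and 6528 to 9040 in co-culture, and those of 9 granulocyte markers 0 in each library alone and 704 to 985 in co-culture. Sums over 11 leukocyte markers were 667 to 1099 alone, where LAPTM5, CD3E, CSF1R and TYROBP had no count, and 1738 to 1874 in co-culture. Of 8 leukocyte markers tested, LAPTM5, CD74, LYZ and CD14 rose, while PTPRC, CD53, CORO1A and CD79A did not pass. LYZ had the largest gain, from 250 counts over the libraries alone to 2092 in co-culture, while CD79A went from 981 to 636. Sums over the 12 stellate and fibroblast markers overlapped, at 7330 to 9304 without LX2 and 5326 to 10566 with it. Of 10 tested only COL3A1 passed, rising to a mean of 1.32 FPKM (log2 fold change 3.3, edgeR adjusted p = 0.0106). Its mean in co-cultured LX2 was 0.139 FPKM. COL1A2 varied by HCCLM3 library: 0, 0 and 502 without LX2, then 0, 320 and 853 with it. Co-cultured LX2 held 4 counts of COL1A2 in all. The source of this collagen RNA was not tested. In LX2 the erythroid sums were 6 to 15 alone and 4 to 112 in co-culture, and the leukocyte sums 133 to 250 and 147 to 222. Blood cells express many of the genes below, and the part of these shifts in the HCCLM3 results was not tested. Transcripts of the partner line were also measured: for 30 genes with at least 20 FPKM in LX2 and under 0.1 FPKM in HCCLM3, the rise in co-cultured HCCLM3 had a median of 0.151% and a highest value of 0.581% of the LX2 level. For 49 genes chosen the same way in the other direction, the rise in co-cultured LX2 had a median of 0.544% and a highest value of 3.02% of the HCCLM3 level. KRT19 had no count in LX2 alone and 44, 43 and 111 counts in co-cultured LX2. SPP1 likewise went from 0 in each library to 261, 254 and 252 counts.

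Promoter sequences show what the members share beyond their names. Of the 39 members, 31 had a promoter in the RefSeq table used (GRCh38.p14; 250 bases before and 50 bases after an annotated start), DDX58 under the symbol RIGI. The ISRE core, GAAA and GAAA with any 2 bases (NN) between them, searched on both strands, occurred in 20 of these 31 (64.5%; exact 95% interval 45.4 to 80.8%), against 4.38% of all 27305 symbols. Windows for one gene can overlap; of 42 member windows 57.1% held the core, against 3.57% of 35116 windows of that length. The STAT element TTCNNNGAA was in 11 of 31 members (35.5%) and in 9.38% of symbols. It may share bases with the ISRE core. The 180 bases before the start are printed 5′ to 3′ for 6 members with the core, chosen because their values carry the results that follow, and for IFI35, which lacked it; capitals mark the ISRE core on either strand.
IFI44L, chr1:78620268-78620447, plus strand: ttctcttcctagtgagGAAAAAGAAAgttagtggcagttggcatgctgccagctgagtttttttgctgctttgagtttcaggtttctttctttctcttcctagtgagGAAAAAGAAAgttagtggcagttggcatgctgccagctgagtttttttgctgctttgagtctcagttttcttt
OAS3, chr12:112938294-112938473, plus strand: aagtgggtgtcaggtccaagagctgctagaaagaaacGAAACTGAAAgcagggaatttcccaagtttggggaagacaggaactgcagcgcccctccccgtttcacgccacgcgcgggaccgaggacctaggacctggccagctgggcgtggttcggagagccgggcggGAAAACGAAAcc
IFIT1, chr10:89392443-89392622, plus strand: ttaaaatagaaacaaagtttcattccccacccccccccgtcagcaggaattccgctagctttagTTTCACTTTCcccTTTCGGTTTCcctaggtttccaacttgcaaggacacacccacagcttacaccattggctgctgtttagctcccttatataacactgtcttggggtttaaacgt
ISG15, chr1:1013317-1013496, plus strand: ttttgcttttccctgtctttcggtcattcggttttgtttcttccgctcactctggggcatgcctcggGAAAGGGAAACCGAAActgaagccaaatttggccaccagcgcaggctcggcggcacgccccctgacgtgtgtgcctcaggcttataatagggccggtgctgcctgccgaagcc
IFITM3, chr11:320861-321040, minus strand: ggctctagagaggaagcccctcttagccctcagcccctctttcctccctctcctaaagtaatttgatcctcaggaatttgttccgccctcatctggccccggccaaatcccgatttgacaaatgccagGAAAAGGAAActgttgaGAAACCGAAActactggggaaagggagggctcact
BST2, chr19:17405631-17405810, minus strand: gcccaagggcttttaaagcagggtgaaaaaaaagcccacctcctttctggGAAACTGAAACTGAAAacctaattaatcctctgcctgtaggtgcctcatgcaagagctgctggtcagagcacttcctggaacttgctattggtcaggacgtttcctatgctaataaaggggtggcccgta
IFI35, chr17:43006604-43006783, plus strand: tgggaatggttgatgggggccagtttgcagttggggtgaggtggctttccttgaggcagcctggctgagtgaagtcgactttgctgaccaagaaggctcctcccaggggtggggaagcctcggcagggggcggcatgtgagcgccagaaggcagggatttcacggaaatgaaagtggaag
In ISG15 and BST2, adjacent cores overlapped and are read as 1 run of capitals. The cores of IFI44L began 164 and 73 bases before the start, inside a stretch that is repeated within the window, and those of OAS3 began 143 and 12 bases before it. A match to these letters is a description of the sequence, not a measured binding site.

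In co-culture most members fell in LX2, while in HCCLM3 more members rose than fell. In LX2, 32 of 37 members tested fell in co-culture and 1, IFI35, rose, while in HCCLM3 11 of 34 tested rose and 5 fell (edgeR's quasi-likelihood test at an adjusted p under 0.05, Benjamini-Hochberg over all genes tested). Over all genes, 16.6% of 19671 were lower and 15.4% higher in LX2, and 10.1% of 18045 were higher and 11.6% lower in HCCLM3. Of the members tested, 86.5% were lower and 2.7% higher in LX2, and 32.4% were higher and 14.7% lower in HCCLM3. The share of members that fell in HCCLM3 was thus near that of all genes. The members' median log2 fold change was -1.4 in LX2, where that of all genes was 0.015, and 0.56 in HCCLM3, where it was 0.033. In 1 fit over all 12 libraries, which share 1 estimate of the spread, IRF1, IFITM2, BST2, RSAD2 and CMPK2 no longer passed in LX2. Of 38 members tested in that fit, 27 fell in LX2, while 23 rose and 7 fell in HCCLM3. Over its 21959 genes, 1685 fell in LX2, and 2908 rose and 2755 fell in HCCLM3. In bulk RNA, fewer cells of a type and less RNA per cell cannot be told apart. With library totals in place of trimmed mean (TMM) scaling, 19 of 34 members were higher and 4 lower in HCCLM3. All genes called higher then went from 1829 to 2977 of 18045, and the median of all genes moved from 0.033 to 0.21. FPKM values carry that shift, so log2 fold changes from edgeR, not FPKM ratios, are the measure of change below.

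**Figure D1:**
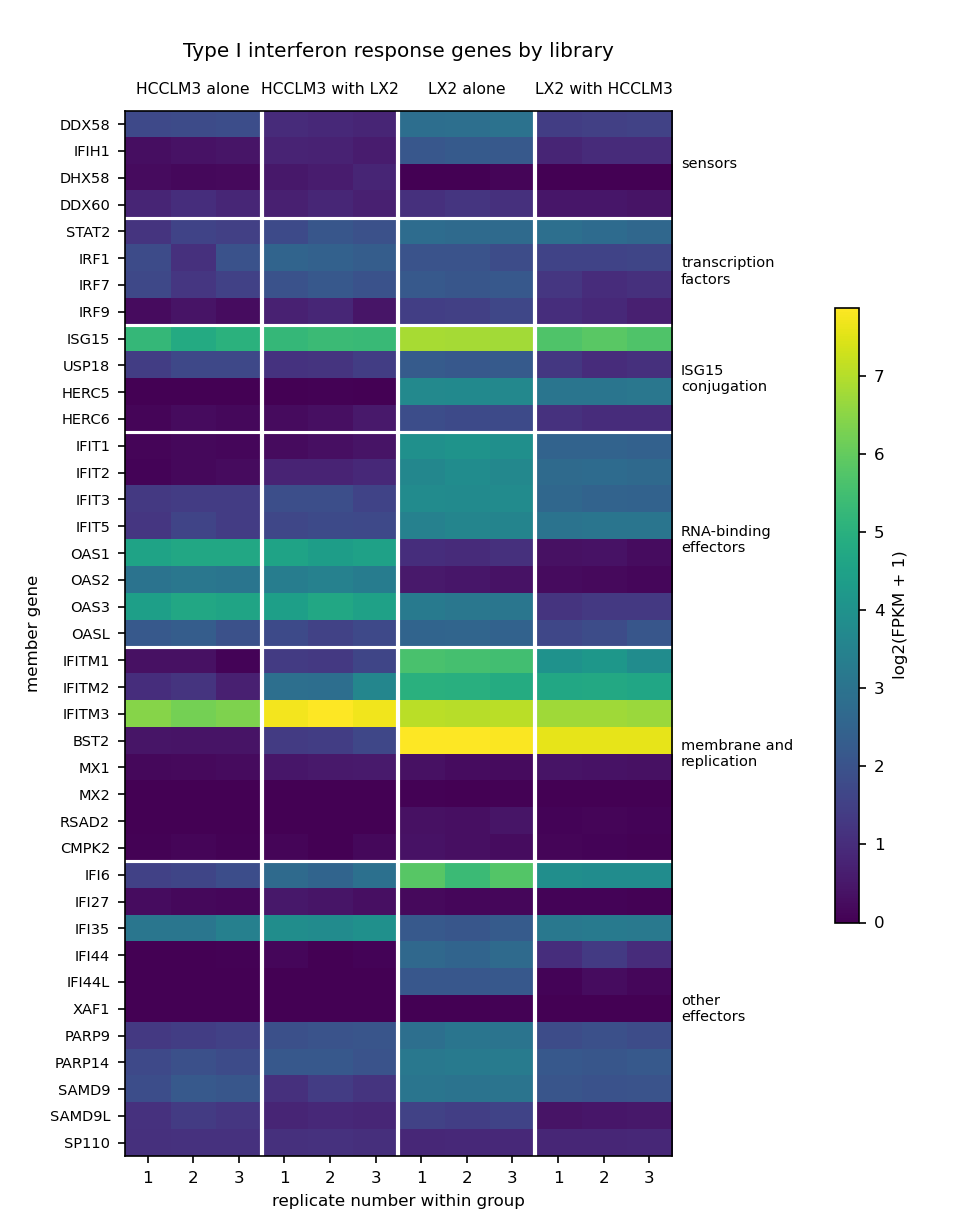
Each row is a member grouped by role, each column a library (replicate 1 to 3 of each group), and the colour is log2(FPKM + 1). LX2 alone is the brightest group for most IFIT and IFITM genes, whereas OAS1, OAS2 and OAS3 are brighter in HCCLM3.

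The lines started from different levels, which are described only, since the tables were scaled separately. Grown alone, 32 members had a higher FPKM in LX2 and 7 in HCCLM3 (DHX58, OAS1, OAS2, OAS3, IFI27, IFI35 and SP110). In LX2 alone 30 members reached 1 FPKM, and in LX2 with HCCLM3 24 did. In HCCLM3 the counts were 20 alone and 21 in co-culture. Summed over the 39 members, LX2 alone held 759, 734 and 737 FPKM and co-cultured LX2 470, 478 and 465 FPKM, with no overlap. HCCLM3 alone held 212, 201 and 212 FPKM and co-cultured HCCLM3 362, 387 and 368 FPKM. IFITM3 by itself made up much of the HCCLM3 sum: it rose from a mean of 80.1 to 215 FPKM.

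Among the RNA sensors, DDX58 fell in both lines, whereas IFIH1 rose in HCCLM3 and fell in LX2. DDX58 (ENSG00000107201, chromosome 9, 32455302 to 32526208), which encodes RIG-I, stood at 2.32, 2.45 and 2.60 FPKM in HCCLM3 alone and 0.977, 0.875 and 0.761 FPKM in co-culture, a 3.16-fold fall (log2 fold change -1.66, SE 0.143; edgeR adjusted p = 0.00102). In LX2 it was at 6.14, 6.41 and 6.80 FPKM alone and 1.69, 1.79 and 1.91 FPKM in co-culture (log2 fold change -1.87, SE 0.0752; edgeR adjusted p = 1.39e-05). Every co-cultured library lay below every library alone in both lines, and the changes did not differ by the test of the difference (0.18 log2, SE 0.155; edgeR adjusted p = 0.48). IFIH1 (ENSG00000115267, chromosome 2, 162267074 to 162318684), which encodes the sensor of long double-stranded RNA MDA5, stood at 0.214, 0.298 and 0.358 FPKM in HCCLM3 alone and at 0.708, 0.668 and 0.530 FPKM in co-culture (log2 fold change 0.96, SE 0.24; edgeR adjusted p = 0.0319). This call held in only 1 of the 6 fits that left out a library, that without HCCLM3 alone replicate 3; the adjusted p of the others was up to 0.0976. In LX2 IFIH1 was at 3.42, 3.67 and 3.62 FPKM alone and 0.763, 0.949 and 0.939 FPKM in co-culture, a 4.11-fold fall (log2 fold change -2.04, SE 0.109; edgeR adjusted p = 4.66e-05). The groups did not overlap in either line.

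The other sensors were low. DHX58 (ENSG00000108771), which encodes LGP2, a regulator of RIG-I and MDA5, stood at 0.166, 0.129 and 0.154 FPKM in HCCLM3 alone and 0.428, 0.512 and 0.750 FPKM in co-culture (log2 fold change 1.73, SE 0.293; edgeR adjusted p = 0.00894). In LX2 it was below the filter: the libraries grown alone had 4, 3 and 23 counts and those of co-culture 4, 4 and 0. DDX60 (ENSG00000137628), a helicase related to the sensors, stood at 0.761, 1.03 and 0.780 FPKM in HCCLM3 alone and 0.614, 0.788 and 0.611 FPKM in co-culture, ranges that overlap in FPKM (log2 fold change -0.52, SE 0.182; edgeR adjusted p = 0.0887). In LX2 it fell 3.26-fold, from 1.12, 1.31 and 1.14 FPKM to 0.397, 0.380 and 0.335 FPKM (log2 fold change -1.70, SE 0.119; edgeR adjusted p = 0.000132). So 3 of 3 sensors tested fell in LX2, and in HCCLM3 2 of 4 rose and 1 fell. Over all genes, 16.6% fell in LX2, and 10.1% rose and 11.6% fell in HCCLM3.

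**Figure D2:**
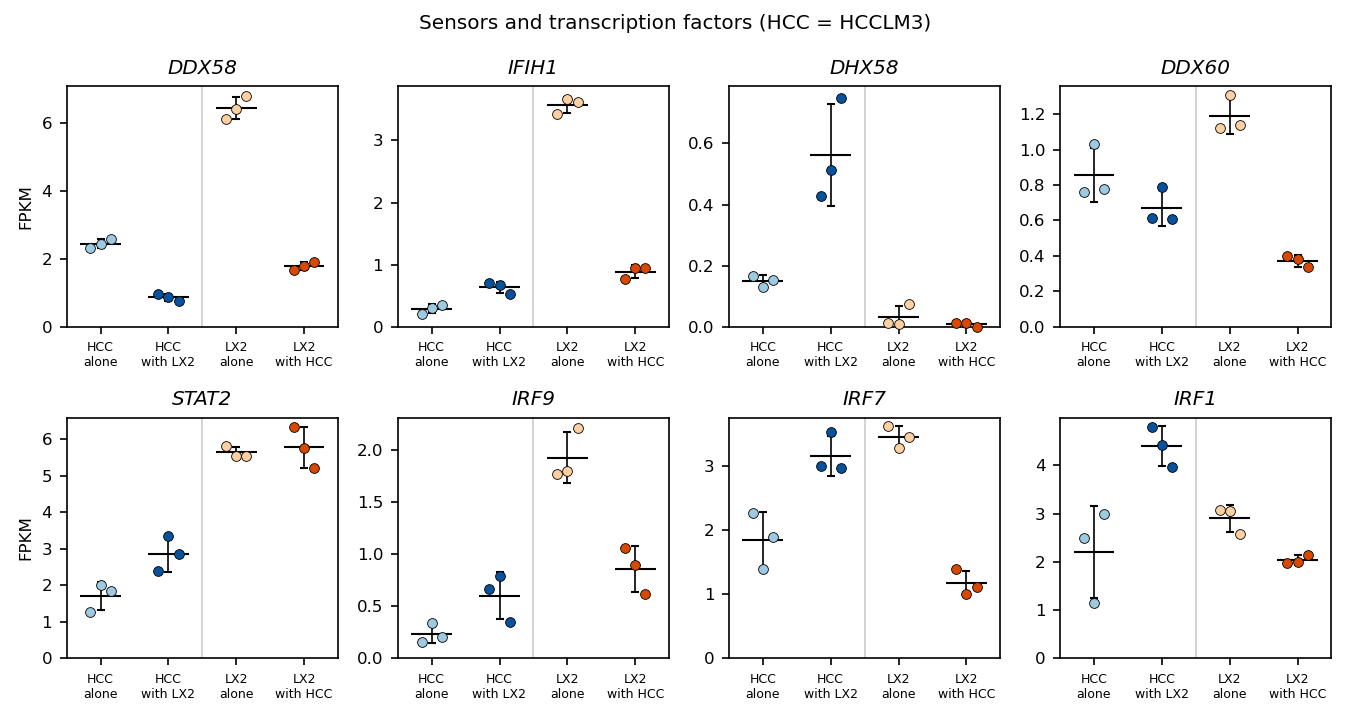
Points are FPKM per library for 4 sensors and 4 transcription factors, by group (3 libraries each), with the mean and SD as lines; each y axis starts at 0 and has its own range. DDX58 is lower in co-culture in both lines, and IFIH1, IRF7 and IRF9 are lower in co-cultured LX2.

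Of the transcription factors, 3 of 4 fell in LX2, against 16.6% of all genes. In HCCLM3 0 of 4 passed the test, and all 4 had an unadjusted p under 0.05, as had 6496 of all 18045 genes. IRF7 (ENSG00000185507), which drives interferon genes and amplifies the response, stood at 3.62, 3.28 and 3.45 FPKM in LX2 alone and 1.39, 1 and 1.11 FPKM in co-culture, a 2.96-fold fall (log2 fold change -1.57, SE 0.14; edgeR adjusted p = 0.000375). In HCCLM3 it was at 2.26, 1.39 and 1.89 FPKM alone and 2.99, 3.52 and 2.96 FPKM in co-culture (log2 fold change 0.59, SE 0.204; edgeR adjusted p = 0.0837). The co-cultured HCCLM3 libraries were above those alone without overlap, yet the change missed the threshold. IRF9 (ENSG00000213928), the DNA-binding partner of STAT2, stood at 1.77, 1.80 and 2.21 FPKM in LX2 alone and 1.06, 0.895 and 0.616 FPKM in co-culture (log2 fold change -1.18, SE 0.213; edgeR adjusted p = 0.00711). In HCCLM3 it was at 0.161, 0.336 and 0.206 FPKM alone and 0.665, 0.786 and 0.353 FPKM in co-culture (log2 fold change 1.17, SE 0.378; edgeR adjusted p = 0.0691). Another gene model on the same strand overlaps IRF9 and had more counts, so its values are uncertain.

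In LX2, IRF1 and STAT2 had smaller log2 fold changes than IRF7 and IRF9. IRF1 (ENSG00000125347), a factor induced by interferons and by other cytokines, stood at 3.08, 3.05 and 2.58 FPKM in LX2 alone and 1.98, 1.99 and 2.15 FPKM in co-culture (log2 fold change -0.54, SE 0.0888; edgeR adjusted p = 0.00512). In HCCLM3 it was at 2.5, 1.15 and 2.99 FPKM alone and 4.79, 4.43 and 3.96 FPKM in co-culture (log2 fold change 0.82, SE 0.324; edgeR adjusted p = 0.119). STAT2 (ENSG00000170581), the signal-activated partner of IRF9, stood at 5.81, 5.55 and 5.55 FPKM in LX2 alone and 6.34, 5.77 and 5.21 FPKM in co-culture, which overlap (log2 fold change 0.01, SE 0.0775; edgeR adjusted p = 0.967). In HCCLM3 STAT2 was at 1.28, 2.01 and 1.84 FPKM alone and 2.38, 3.34 and 2.85 FPKM in co-culture (log2 fold change 0.57, SE 0.192; edgeR adjusted p = 0.078). With the DESeq2 Wald test, STAT2, IRF1, IRF7 and IRF9 all passed in HCCLM3.

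The ISG15 system attaches the ubiquitin-like protein ISG15 to other proteins. Its 4 members all fell in LX2, against 16.6% of all genes, and none of the 3 tested in HCCLM3 passed. ISG15 (ENSG00000187608, chromosome 1, 1001138 to 1014540) stood at 114, 110 and 108 FPKM in LX2 alone and 50.9, 56.9 and 51.2 FPKM in co-culture, a 2.12-fold fall (log2 fold change -1.08, SE 0.0569; edgeR adjusted p = 4.27e-05). In HCCLM3 it was at 36.9, 27.2 and 31.7 FPKM alone and 37.0, 40.4 and 39.4 FPKM in co-culture (log2 fold change 0.12, SE 0.131; edgeR adjusted p = 0.577). USP18, which removes ISG15 and also restrains the receptor, went from 3.75, 3.53 and 3.64 to 1.40, 0.995 and 1.14 FPKM in LX2 (log2 fold change -1.65, SE 0.147; edgeR adjusted p = 0.000369). In HCCLM3 USP18 was at 1.67, 2.28 and 2.28 FPKM alone and 1.24, 1.29 and 1.71 FPKM in co-culture (log2 fold change -0.72, SE 0.209; edgeR adjusted p = 0.0506). HERC5, the main ISG15 ligase of human cells, went from 12, 12.4 and 11.7 to 7.25, 7.27 and 7.70 FPKM in LX2 (log2 fold change -0.73, SE 0.0462; edgeR adjusted p = 9.08e-05). HCCLM3 alone had no count of HERC5 and co-cultured HCCLM3 27 counts over 3 libraries, too few to test. HERC6, a relative of HERC5, fell from 2.60, 2.40 and 2.37 to 1.16, 1 and 1.02 FPKM in LX2 (log2 fold change -1.24, SE 0.092; edgeR adjusted p = 0.000173).

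Among the 8 RNA-binding effectors, all fell in LX2, against 16.6% of all genes. In HCCLM3 1 rose (12.5%, near the 10.1% of all genes) and 2 fell (25%, against 11.6%). IFIT1, IFIT2, IFIT3 and IFIT5 encode tetratricopeptide proteins, of which IFIT1 and IFIT5 bind the 5′ end of foreign RNA. In LX2 IFIT1 (ENSG00000185745) stood at 14.5, 15.4 and 14 FPKM alone and 4.62, 4.62 and 4.45 FPKM in co-culture, a 3.28-fold fall (log2 fold change -1.71, SE 0.0525; edgeR adjusted p = 4.86e-06). IFIT3, which holds IFIT1 in a complex, went from 13, 12.6 and 13 to 5.18, 4.69 and 4.53 FPKM (log2 fold change -1.45, SE 0.0689; edgeR adjusted p = 2.81e-05). IFIT2 went from 11.6, 13.2 and 11.8 to 5.61, 5.70 and 5.42 FPKM (log2 fold change -1.16, SE 0.0643; edgeR adjusted p = 5.42e-05). The smallest fall of the family was that of IFIT5, from 10.1, 11.1 and 10.6 to 6.98, 7.29 and 7.27 FPKM (log2 fold change -0.60, SE 0.0536; edgeR adjusted p = 0.000391). In no case did the LX2 groups overlap.

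In HCCLM3 the same family was low, and IFIT2 was its only called member: 0.0645, 0.12 and 0.180 FPKM alone and 0.716, 0.712 and 0.872 FPKM in co-culture, a 5.53-fold rise (log2 fold change 2.47, SE 0.367; edgeR adjusted p = 0.00572). IFIT1 was at 0.0810, 0.132 and 0.103 FPKM alone and 0.181, 0.250 and 0.324 FPKM in co-culture (log2 fold change 1.08, SE 0.345; edgeR adjusted p = 0.0683). IFIT3, at 1.47, 1.64 and 1.66 FPKM alone and 2.69, 2.70 and 2.02 FPKM in co-culture, and IFIT5 had log2 fold changes of 0.47 and 0.29 and did not pass either. The IFIT genes are near relatives, and IFIT1, IFIT2 and IFIT3 also overlap an abundant gene on the other strand; whether counting used strand was not given in the sources used here.

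The oligoadenylate synthetases OAS1, OAS2 and OAS3 make the messenger that activates RNase L, and OASL is an inactive relative that aids RIG-I. OAS3 (ENSG00000111331, chromosome 12, 112938444 to 112968054) stood at 8.43, 7.63 and 7.51 FPKM in LX2 alone and 1.25, 1.46 and 1.46 FPKM in co-culture, a 5.75-fold fall (log2 fold change -2.52, SE 0.0866; edgeR adjusted p = 7.7e-06). In HCCLM3 it was high and overlapped between groups, at 20.8, 25.2 and 23.3 FPKM alone and 20.7, 25.2 and 21.5 FPKM in co-culture (log2 fold change -0.20, SE 0.0964; edgeR adjusted p = 0.179). OAS1 (ENSG00000089127) went from 1.04, 0.962 and 1.15 to 0.269, 0.292 and 0.211 FPKM in LX2 (log2 fold change -2.03, SE 0.159; edgeR adjusted p = 0.00022). In HCCLM3 OAS1 was at 22.8, 25.2 and 25.4 FPKM alone and 22.5, 19.9 and 21.9 FPKM in co-culture (log2 fold change -0.35, SE 0.0815; edgeR adjusted p = 0.0242). That small fall was -0.18 with library totals (adjusted p 0.15), and was lost when HCCLM3 alone replicate 2 or 3, or HCCLM3 with LX2 replicate 2 or 3, was left out. OAS2 was at 7.05, 7.72 and 7.27 FPKM in HCCLM3 alone and 9.02, 9.88 and 8.89 FPKM in co-culture (log2 fold change 0.17, SE 0.0753; edgeR adjusted p = 0.16), and below 1 FPKM in LX2, where it fell (log2 fold change -1.45). OASL fell in both lines: from 3.55, 3.98 and 2.85 to 2.42, 1.94 and 2.35 FPKM in HCCLM3 (log2 fold change -0.80, SE 0.171; edgeR adjusted p = 0.0198) and from 4.76, 4.95 and 4.59 to 2.20, 2.58 and 3.29 FPKM in LX2 (log2 fold change -0.85, SE 0.151; edgeR adjusted p = 0.00659). In HCCLM3 the OASL call was lost without HCCLM3 alone replicate 1 or 2, or HCCLM3 with LX2 replicate 2 or 3. For 3 of the 4 OAS genes, those named OAS1 to OAS3, the change in LX2 lay below that in HCCLM3 by the test of the difference (1.59 to 2.29 log2). Of these, only OAS1 was called lower in HCCLM3.

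Of the 11 HCCLM3 rises, 5 were among the membrane and replication effectors, where 5 of 6 tested rose and 0 fell, while in LX2 6 of 8 fell. Over all genes, 10.1% rose and 11.6% fell in HCCLM3, and 16.6% fell in LX2. IFITM1, IFITM2 and IFITM3 encode membrane proteins that block fusion of virus with the cell, and BST2 encodes tetherin, which holds budding virus at the surface. IFITM3 (ENSG00000142089, chromosome 11, 319676 to 327537) stood at 86.3, 73.4 and 80.7 FPKM in HCCLM3 alone and 211, 229 and 207 FPKM in co-culture, a 2.39-fold rise (log2 fold change 1.26, SE 0.0893; edgeR adjusted p = 0.000636). In LX2 it was at 133, 130 and 132 FPKM alone and 106, 107 and 103 FPKM in co-culture (log2 fold change -0.35, SE 0.03; edgeR adjusted p = 0.000325). IFITM2 was at 1.04, 1.27 and 0.621 FPKM in HCCLM3 alone and 6.34, 6.23 and 11.3 FPKM in co-culture (log2 fold change 2.84, SE 0.354; edgeR adjusted p = 0.00312), and at 30.7, 30.3 and 27.8 FPKM in LX2 alone and 25.2, 25.8 and 24.0 FPKM in co-culture (log2 fold change -0.27, SE 0.0581; edgeR adjusted p = 0.014). IFITM1 was at 0.281, 0.281 and 0.0533 FPKM in HCCLM3 alone and 1.58, 1.45 and 2.13 FPKM in co-culture (log2 fold change 2.81, SE 0.55; edgeR adjusted p = 0.0145). Without HCCLM3 with LX2 replicate 3 that call was lost (adjusted p 0.0547). In LX2 IFITM1 fell 3.08-fold, from 47.5, 45.6 and 44.0 to 15.2, 16.9 and 13.3 FPKM (log2 fold change -1.62, SE 0.0974; edgeR adjusted p = 7.35e-05). The models of IFITM1 and IFITM2 overlap on the same strand and the family is near identical in places, so the split of counts between them is uncertain.

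BST2 (ENSG00000130303, chromosome 19, 17402939 to 17405630) showed the widest gap in FPKM between the lines grown alone. It stood at 233, 231 and 226 FPKM in LX2 alone and 189, 189 and 192 FPKM in co-culture (log2 fold change -0.30, SE 0.0253; edgeR adjusted p = 0.000278). In HCCLM3 it was at 0.366, 0.338 and 0.335 FPKM alone and 1.58, 1.69 and 2.21 FPKM in co-culture, a 4.61-fold rise (log2 fold change 2.20, SE 0.254; edgeR adjusted p = 0.00239). The rise was 0.78% of the level in co-cultured LX2, and the highest of the 30 partner genes was 0.581%. For each of the other 10 members called higher, the rise was 10% or more of the LX2 level. The part of LX2 transcripts in these rises was not tested. MX1, a dynamin-like GTPase that traps viral nucleocapsids, stood below 1 FPKM throughout: 0.122, 0.154 and 0.167 FPKM in HCCLM3 alone and 0.404, 0.459 and 0.484 FPKM in co-culture (log2 fold change 1.41, SE 0.187; edgeR adjusted p = 0.00382), with no call in LX2 (log2 fold change 0.45; adjusted p 0.126). RSAD2 (viperin) and CMPK2, which overlap on opposite strands, fell in LX2 from means of 0.303 and 0.251 FPKM to 0.062 and 0.0579 FPKM. MX2 had 78 counts in LX2 alone and 10 in co-culture and did not pass.

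The remaining 11 effectors fell in LX2 in 8 of 10 tests (80%, against 16.6% of all genes). In HCCLM3 3 of 9 tested rose (33.3%, against 10.1%) and 2 fell (22.2%, against 11.6%). The widest LX2 fall of all members was that of IFI44L (ENSG00000137959, chromosome 1, 78619922 to 78642799), a cytoplasmic protein of incompletely known function: 3.4, 3.36 and 3.5 FPKM alone and 0.0460, 0.195 and 0.103 FPKM in co-culture, 29.9-fold lower (log2 fold change -4.90, SE 0.474; edgeR adjusted p = 0.000528). Its relative IFI44 went from 5.35, 4.83 and 5.57 to 1.04, 1.53 and 0.990 FPKM (log2 fold change -2.16, SE 0.19; edgeR adjusted p = 0.000352). Both were at or near 0 in every HCCLM3 library. IFI6, a mitochondrial and endoplasmic reticulum protein, stood at 55.6, 40.3 and 53.8 FPKM in LX2 alone and 13.9, 13.3 and 13.2 FPKM in co-culture (log2 fold change -1.91, SE 0.129; edgeR adjusted p = 0.000117). In HCCLM3 IFI6 rose from 1.90, 2.15 and 2.64 to 5.61, 4.84 and 6.43 FPKM (log2 fold change 1.17, SE 0.199; edgeR adjusted p = 0.00901). IFI35, a binding partner of NMI, was the 1 member higher in both lines: 7.52, 7.48 and 9.85 FPKM alone and 13.4, 12.8 and 14.4 FPKM in co-culture in HCCLM3 (log2 fold change 0.54, SE 0.131; edgeR adjusted p = 0.0281), and 3.58, 3.32 and 3.78 FPKM alone and 7.95, 8.2 and 7.99 FPKM in co-culture in LX2 (log2 fold change 1.14, SE 0.0777; edgeR adjusted p = 0.000121). The LX2 rise of IFI35 was 33.1% of its level in co-cultured HCCLM3. The HCCLM3 call of IFI35 was lost without any 1 of 5 libraries, all but HCCLM3 alone replicate 3.

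PARP9 and PARP14 encode members of the poly(ADP-ribose) polymerase family linked to interferon signalling. PARP9 rose in HCCLM3 from 1.49, 1.72 and 1.86 to 2.82, 3.05 and 3.20 FPKM (log2 fold change 0.67, SE 0.107; edgeR adjusted p = 0.00715) and fell in LX2 from 6.31, 7.28 and 7.16 to 2.59, 2.76 and 2.55 FPKM (log2 fold change -1.42, SE 0.0712; edgeR adjusted p = 3.44e-05). PARP14 fell in LX2 from 7.80, 8.22 and 8.63 to 3.54, 3.35 and 3.6 FPKM (log2 fold change -1.26, SE 0.0524; edgeR adjusted p = 1.59e-05), with 0.25 and an adjusted p of 0.128 in HCCLM3. PARP9 overlaps an abundant gene on the other strand. SAMD9 and SAMD9L, neighbouring genes on chromosome 7 whose products restrict poxviruses and cell growth, fell in both lines. SAMD9 went from 2.64, 3.62 and 3.29 to 1.11, 1.63 and 1.27 FPKM in HCCLM3 (log2 fold change -1.42, SE 0.174; edgeR adjusted p = 0.00295) and from 7.34, 7.04 and 7.18 to 3.25, 2.95 and 3.01 FPKM in LX2 (log2 fold change -1.26, SE 0.0547; edgeR adjusted p = 1.95e-05). SAMD9L went from 1.16, 1.58 and 1.36 to 0.757, 0.884 and 0.782 FPKM in HCCLM3 (log2 fold change -0.92, SE 0.149; edgeR adjusted p = 0.00764) and from 1.93, 1.75 and 2.02 to 0.330, 0.398 and 0.436 FPKM in LX2 (log2 fold change -2.31, SE 0.133; edgeR adjusted p = 6.29e-05). SP110, a nuclear body protein, was at means of 1.17 and 1.14 FPKM in HCCLM3 and 0.872 and 0.816 FPKM in LX2 and passed in neither. IFI27 stood at or below 0.348 FPKM as a mean in every group, and its fall in LX2 (log2 fold change -1.25, SE 0.338; edgeR adjusted p = 0.0323) was lost in each of the 6 fits that left out 1 library. XAF1 had 14 counts in co-cultured HCCLM3, 27 in LX2 alone and none in the other 2 groups.

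**Figure D3:**
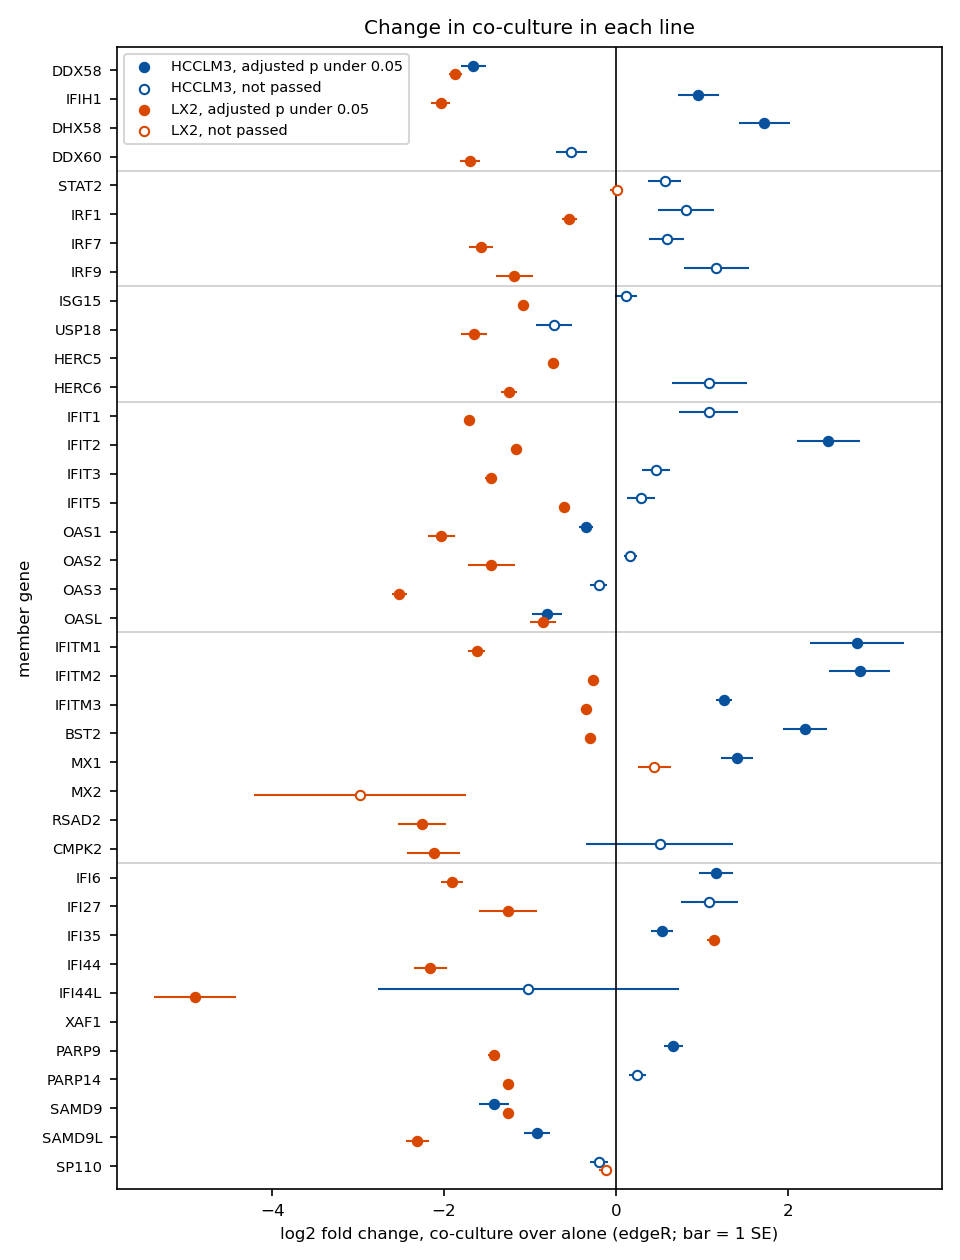
Points are log2 fold changes of co-culture over alone from edgeR with bars of 1 SE, blue for HCCLM3 and orange for LX2; filled points passed an adjusted p of 0.05, and members without a point were not tested. Most orange points lie left of 0, and the blue points spread to both sides, from -1.66 (DDX58) to 2.84 (IFITM2).

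Setting the lines side by side, 8 members were higher in HCCLM3 and lower in LX2 (IFIH1, IFIT2, IFITM1, IFITM2, IFITM3, BST2, IFI6 and PARP9). Another 5 were lower in both (DDX58, OAS1, OASL, SAMD9 and SAMD9L), 1 was higher in both, and 16 were lower in LX2 with no call in HCCLM3. The test of the difference, the change in HCCLM3 minus that in LX2 over all 12 libraries, put 30 of 38 members tested above 0 and 1, IFI35, below (-0.63 log2; edgeR adjusted p = 0.0172), which did not pass with library totals. Over all 21959 genes tested, 9.39% lay above and 11.3% below. The 30 members above 0 include HERC5, RSAD2, MX2 and IFI44, which had too few counts to test in HCCLM3. They also include DHX58, which was below the filter in LX2. For each of these the change in 1 line rests on few counts. The HERC5 rise in HCCLM3 was 0.3% of its level in co-cultured LX2, and the highest of the 30 partner genes was 0.581%. The part of LX2 transcripts in the HERC5 rise was not tested. The members' median difference was 2.1 log2, and that of all genes 0.0078. Of the 5 members lower in both lines, OAS1 and SAMD9L fell further in LX2 (differences of 1.64 and 1.36), while the differences of DDX58, OASL and SAMD9 (0.18, 0.03 and -0.19 log2, with SEs of 0.155, 0.246 and 0.187) did not pass.

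The calls are listed next by the level of the gene in the line alone, as a description only. Over all genes at any level, 10.1% rose and 11.6% fell in HCCLM3, and 15.4% rose and 16.6% fell in LX2. In HCCLM3, of 19 members under 1 FPKM alone, 14 were tested, 7 rose and 0 fell. Of 16 members from 1 to 10 FPKM, 3 rose and 4 fell, and of 4 members at 10 FPKM or more, 1 rose and 1 fell. The 5 that were not tested all belonged to the lowest band, and a gene that passes the count filter through its higher group tends to differ, so the counts of that band support nothing by themselves. In LX2, 11 of 11 members at 10 FPKM or more fell, 17 of 19 from 1 to 10 FPKM fell and 1 rose, and 4 of 7 tested below 1 FPKM fell. Of 37 members tested in LX2, 34 were lower and 2 higher in co-culture without overlap of the libraries. Over all genes this held for 24.0% in each direction. For HCCLM3 the counts were 18 higher and 8 lower of 34 tested, against 22.1% and 21.0% of all genes. The 8 lower members are near the share of all genes.

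**Figure D4:**
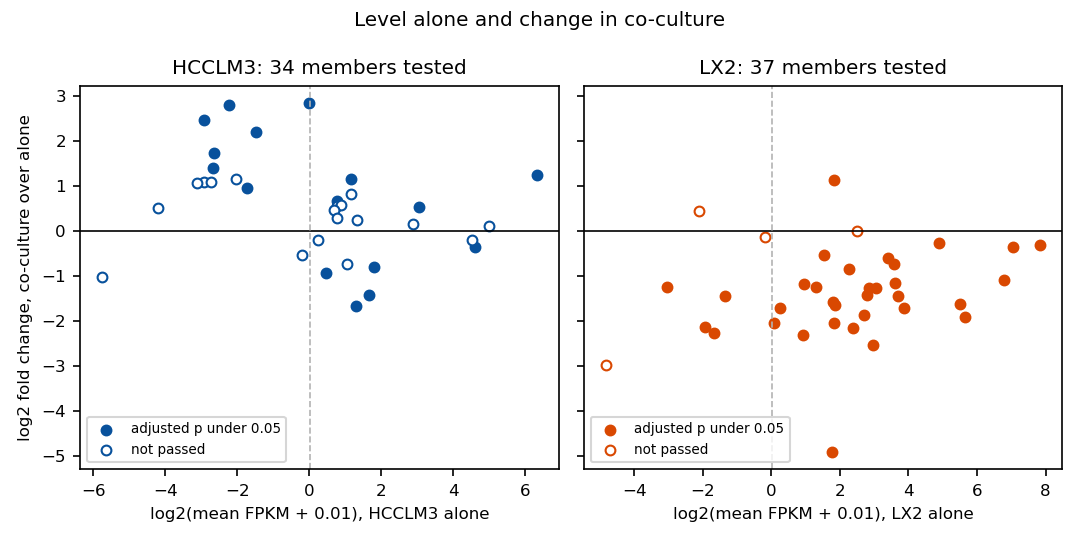
The x axis is log2 of the mean FPKM of the line alone plus 0.01 and the y axis the log2 fold change, for the 34 members tested in HCCLM3 and 37 in LX2; filled points passed an adjusted p of 0.05 and the dashed line marks 1 FPKM. Both axes share the libraries grown alone; in HCCLM3 the falls that passed lie to the right of the dashed line, and in LX2 they lie at all levels.

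Members with and without the ISRE core changed in both lines. In LX2, 19 of 20 members with the core fell and 0 rose (median log2 fold change -1.44), and of 10 tested members whose promoter lacked it 7 fell and 1 rose (median -1.21). In HCCLM3, 7 of 17 tested with the core rose and 1 fell (median 0.67), and without it 1 of 10 rose and 3 fell (median 0.52). Over all genes, 15.4% rose and 16.6% fell in LX2, and 10.1% rose and 11.6% fell in HCCLM3. The 1 of 10 that rose in HCCLM3 without the core is near the share of all genes. The 8 members with no promoter in the table had a median of -1.45 in LX2 and 0.59 in HCCLM3. These medians are descriptions, and the absence of the letters from a window says nothing about the factor. In the sequences printed above, IFI44L and OAS3, with the widest LX2 falls of the genes at 1 FPKM or more, and BST2 and IFITM3, with falls of 0.30 and 0.35 log2, all carry 2 cores.

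**Figure D5:**
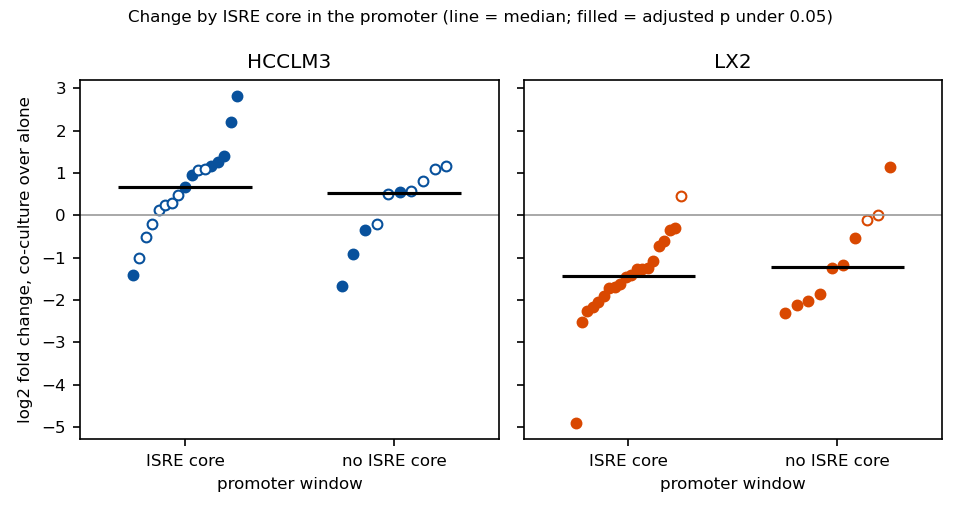
Points are members with a RefSeq promoter, placed by whether the window of 250 bases before to 50 after the start holds the ISRE core; the y axis is the log2 fold change, the horizontal line the median, and filled points passed an adjusted p of 0.05. The medians in LX2 are -1.44 with and -1.21 without the core.

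Upstream of the members, interferon transcripts were scarce. Of 21 ligand genes, 20 had no count in HCCLM3 alone, 19 none in co-cultured HCCLM3, and 14 none in LX2 alone and 14 none in co-cultured LX2. Over both LX2 groups 11 had no count. IFNB1 had 4 counts in 1 library of LX2 alone and none elsewhere, and IFNL1 had none in any library. IFNE, an interferon of epithelia, had the highest count in any library, 57, and did not pass in LX2 (log2 fold change 0.90). Interferon protein was not measured.

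Of the receptor chains and their kinases JAK1 and TYK2, only IFNAR1 in LX2 passed the test. IFNAR1 was at 10.2, 9.69 and 9.34 FPKM in LX2 alone and 8.64, 8.11 and 8.36 FPKM in co-culture (log2 fold change -0.25, SE 0.0479; edgeR adjusted p = 0.00947), and at 4.53, 5.66 and 5.43 FPKM in HCCLM3 alone and 4.92, 3.01 and 2.17 FPKM in co-culture (log2 fold change -0.79, SE 0.287; edgeR adjusted p = 0.0965). The HCCLM3 change missed the threshold, with a larger SE. IFNAR2 had log2 fold changes of -0.26 in HCCLM3 and -0.16 in LX2, JAK1 of -0.03 and 0.05, and TYK2 of 0.08 and -0.02, of which none passed. JAK2, a kinase of the interferon gamma receptor, went from 2.32, 2.40 and 2.30 to 0.828, 0.768 and 0.723 FPKM in LX2 (log2 fold change -1.62, SE 0.0788; edgeR adjusted p = 3.03e-05). IFNGR1, a chain of that receptor, rose in both lines (0.84 in HCCLM3 and 0.47 in LX2). Of 9 receptors and kinases, 2 rose (22.2%) and 1 fell (11.1%) in HCCLM3, against 10.1% and 11.6% of all genes. In LX2 1 rose (12.5%) and 2 fell (25%) of 8 tested, against 15.4% and 16.6% of all genes. The HCCLM3 fall and the LX2 rise are thus near the shares of all genes, and the lists are short.

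Calls among other signalling genes and inhibitors are read against the shares of all genes, 10.1% higher and 11.6% lower in HCCLM3 and 15.4% and 16.6% in LX2. Of 17 other signalling genes tested in each line, 6 rose (35.3%) and 1 fell (5.88%) in HCCLM3, and 4 rose and 4 fell (23.5% each) in LX2. STING1, the adaptor of DNA sensing, rose in HCCLM3 from 1.14, 0.938 and 1.27 to 3.45, 2.63 and 3.07 FPKM (log2 fold change 1.27, SE 0.173; edgeR adjusted p = 0.00424). STAT3 rose in HCCLM3 (0.41) and fell in LX2 (-0.45), and the DNA sensor IFI16 fell in LX2 (-0.55). MAVS, through which RIG-I and MDA5 signal, rose slightly in LX2 from 6.54, 6.02 and 6.51 to 7.74, 7.89 and 7.89 FPKM (log2 fold change 0.27, SE 0.0433; edgeR adjusted p = 0.00423). Among 15 inhibitors, 2 rose and 2 fell in HCCLM3 (13.3% each, near the shares of all genes), and 4 rose (26.7%) and 5 fell (33.3%) in LX2. SOCS3, which restrains JAK kinases, rose in both lines, from 8.78, 9.20 and 9.19 to 21.2, 21.7 and 21.8 FPKM in HCCLM3 (log2 fold change 1.08, SE 0.0706; edgeR adjusted p = 0.000547) and from 9.79, 10.2 and 10.6 to 19.7, 18.7 and 20.5 FPKM in LX2 (log2 fold change 0.91, SE 0.0555; edgeR adjusted p = 7.71e-05). The groups did not overlap in either line. NLRC5 and TRIM21, both also induced by interferon, fell in LX2 (-1.12 and -0.95).

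Interferon-induced effectors beyond the members, from a list of 34, followed the LX2 pattern in part. In LX2 17 of 30 tested fell (56.7%, against 16.6% of all genes), with a median of -0.46. Another 4 rose (13.3%), near the 15.4% of all genes. In HCCLM3 8 of 33 rose (24.2%, against 10.1% of all genes) and 4 fell (12.1%, near the 11.6% of all genes). The median there was 0.034, near the 0.033 of all genes. HELZ2, a helicase coactivator, went from 5.61, 5.31 and 5.48 to 1.58, 1.53 and 1.64 FPKM in LX2 (log2 fold change -1.82, SE 0.0483; edgeR adjusted p = 2.94e-06), and EIF2AK2, the kinase PKR that halts translation, from 13.7, 13.6 and 14 to 8.42, 8.71 and 8.13 FPKM (log2 fold change -0.74, SE 0.0371; edgeR adjusted p = 3.45e-05). LGALS9, a galectin, went the other way in LX2, from 0.112, 0.204 and 0.132 to 1.34, 1.22 and 1.15 FPKM (log2 fold change 2.99, SE 0.235; edgeR adjusted p = 0.000222). In HCCLM3 the enzymes that load ISG15 rose although ISG15 did not pass: UBA7, its activating enzyme, from 0.546, 0.661 and 0.689 to 2.46, 2.72 and 2.48 FPKM (log2 fold change 1.83, SE 0.137; edgeR adjusted p = 0.000716), and UBE2L6, its conjugating enzyme, from 5.57, 4.73 and 5.55 to 18.0, 15.3 and 16 FPKM (log2 fold change 1.47, SE 0.122; edgeR adjusted p = 0.000954). SHFL, an inhibitor of viral frameshifting, rose there as well (log2 fold change 1.44). In each of these HCCLM3 genes the co-cultured libraries lay above those alone.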

How the data were processed

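RNA sequencing of 12 libraries (4 groups of 3) was analysed from 2 deposited tables, 1 per line. The tools named in the submitters' processing notes are StringTie 1.3.0, HISAT2 2.0 and Bowtie 0.12.2. The build named there is mm8, which is of the mouse, though gene identifiers are human. Of the 58394 identifiers found in GENCODE release 29, 90.6% had the same chromosome and either the same start or the same end there. For the members the share was lower, 76.9% (30 of 39). Coordinates were therefore taken as GRCh38. The authors deposited a raw count and an FPKM per gene and library, per the file headers; how FPKM were scaled from table to table was not given in the sources used here. An FPKM of 0.0001 where the count was 0 was read as 0. Low counts gather at multiples of 4 (20.7% of counts of 1 to 16 were 4, and 6.69% were 3, in HCCLM3), so a count is not 1 fragment and no counting interval is given. The 12 pairs of replicates differed by more than sampling noise (chi-square per degree of freedom 39.5 to 99.4).

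Counts were tested per line with edgeR 4.0.16 (R 4.3.3; TMM; filterByExpr with a minimum count of 10 and total of 15; quasi-likelihood; Benjamini-Hochberg over all genes; two-sided; threshold 0.05), and the difference between lines over all 12 libraries. SE is the log2 fold change over the root of F. On simulated counts with 200 changed genes, the HCCLM3 test (18045 genes) found 52% of the genes raised 2-fold, with 11 of 114 calls false. The LX2 test (19671 genes) found 70%, with 11 of 147 false. Both shares of false calls exceed the nominal 0.05. The changed genes were drawn only from those with higher mean counts, so the shares may not hold for members with few counts. In the data far more genes were called, 21.7% in HCCLM3 and 31.9% in LX2. Alternatives used DESeq2 1.42.0, limma 3.58.1 on log2(FPKM + 1) and log2(FPKM + 0.1), other scalings and filters, and left-out libraries. Members and lists were chosen with earlier results of these data known. Values were printed in full for sensors, transcription factors and each member called in a line with at least 1 FPKM in a group there, and for the other pathway lists for up to 4 called genes with the smallest p at 1 FPKM or more and genes set by name, of which 1 is not reported here. MX1 and IFIT2 in HCCLM3, below 1 FPKM, are shown as well. Motif shares were counted with Python 3.11.15 and SciPy 1.17.1.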

Additional observations from a re-analysis of the deposited data

Results flagged for a closer look

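The change in HCCLM3 differed from that in LX2 for 31 members by the edgeR test of the difference (adjusted p under 0.05 over 21959 genes); values are the log2 change in HCCLM3 minus that in LX2. Among the sensors the difference was 2.97 for IFIH1, 3.64 for DHX58 and 1.15 for DDX60. Among the transcription factors the difference was 1.33 for IRF1, 2.13 for IRF7 and 2.32 for IRF9. Among the ISG15 system the difference was 1.17 for ISG15, 0.90 for USP18 and 2.30 for HERC6. Among the RNA-binding effectors the difference was 2.76 for IFIT1, 3.6 for IFIT2, 1.89 for IFIT3, 0.85 for IFIT5, 1.64 for OAS1, 1.59 for OAS2 and 2.29 for OAS3. Among the membrane and replication effectors the difference was 4.40 for IFITM1, 3.08 for IFITM2, 1.57 for IFITM3, 2.48 for BST2 and 0.93 for MX1. Among the other effectors the difference was 3.05 for IFI6, 2.31 for IFI27, 4.85 for IFI44, 2.06 for PARP9, 1.48 for PARP14 and 1.36 for SAMD9L. Only IFI35, of the members that passed, had a negative difference, -0.63. MX2 (9.91), RSAD2 (7.37) and HERC5 (6.99) had no count in HCCLM3 alone, so their fitted values depend on the prior count and bound nothing. IFI44 had 4 counts in HCCLM3 alone and 29 in co-culture, too few to test in HCCLM3 by itself. Of the 12 fits that left out 1 library, the call was lost in 10 for DHX58, 9 for MX1, 7 for IRF1 and 7 for USP18, and the other 27 held in each. The DHX58 difference was 2.18 without LX2 alone replicate 3, which held 23 of the 30 counts of that group.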

How the results depend on the processing

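Of 16 members called in HCCLM3, 10 kept their call and direction under every setting run, as did 27 of 33 in LX2 and 25 of 31 for the difference. Higher and lower members in HCCLM3 were 19 and 4 of 34 tested with library totals, and 16 and 6 of 34 with DESeq2. They were 23 and 7 of 38 in 1 fit over all 12 libraries, and 15 and 4 of 32 with limma on FPKM. Calls over all genes moved too, from 1829 higher and 2095 lower of 18045. They were 2977 and 1039 of 18045 with library totals, and 2446 and 2543 of 18045 with DESeq2. In the fit over 12 libraries they were 2908 and 2755 of 21959, and with limma on log2(FPKM + 1) 2793 and 1072 of 17433. The cause was not tested, beyond the shift in the median of all genes given above for library totals. Leaving out each library gave 8 to 11 higher and 3 to 5 lower in HCCLM3, 1 to 2 higher and 31 to 33 lower in LX2, and 27 to 30 above and 1 below for the difference. A fit without 1 library has fewer samples. In the test of the difference, IFI35 no longer passed below 0 with library totals or with limma on log2(FPKM + 1), which left 0 of 38 and 0 of 36 members there. The replicate numbers did not pair the libraries (correlations of same-numbered deviations 0.025 to 0.097 in HCCLM3, each library correlating best with its own number, and -0.047 to 0.035 in LX2). A replicate block gave 11 higher and 3 lower in HCCLM3, 1 and 31 in LX2 and 29 and 1 for the difference. Counts divided by 4, chosen after seeing the data, gave 12 and 5, 1 and 31, and 30 and 1. With at most 1 mismatch 87.1% of the 31 members with a promoter held the ISRE core, against 37.7% of symbols. Signs turned for values near 0 or with few counts: CMPK2 in HCCLM3 (-0.10, against up to 1.01 without another library, without HCCLM3 with LX2 replicate 3), STAT2 in LX2 (0.00 with no filter, and -0.01 to -0.06 when LX2 alone replicate 2 or 3, or LX2 with HCCLM3 replicate 1, was left out), and differences for SP110 (0.07 with library totals, 0.02 and 0.05 with limma), SAMD9 (0.17 and 0.01 with limma), OASL (-0.10 to 0.19 over the left-out libraries, negative without HCCLM3 alone replicate 3, HCCLM3 with LX2 replicate 1 or 3, or LX2 with HCCLM3 replicate 1) and IFI44L (-1.31 without HCCLM3 with LX2 replicate 3, and up to 4.49 without another library). DHX58 in HCCLM3 lost its call in the fit over all 12 libraries (adjusted p 0.0931) and IFIH1 with no filter (adjusted p 0.0555). No symbol had several rows, so summing rows could not differ and was not run. Count depth limits HERC5, MX2, RSAD2, IFI44 and XAF1 in HCCLM3, which could not be tested there.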
